A study of Mus musculus with 8 samples.

Results

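The genes of the platelet-derived growth factor (PDGF) family were followed in mouse aortic smooth muscle cells (MASMCs), which had all been stimulated with the family's own ligand PDGF-BB. They are the 4 ligand genes Pdgfa, Pdgfb, Pdgfc, and Pdgfd, the receptor genes Pdgfra and Pdgfrb, and the receptor-like gene Pdgfrl. These 7 genes were chosen by symbol from the 18533 gene symbols counted, as the ligands and receptors of one family, by a rule that uses no measured value. The family itself was chosen with earlier results of these data known. PDGFs are secreted dimers that bring receptor chains together at the cell surface, after which the receptors phosphorylate each other and recruit signalling proteins. PDGF-A and PDGF-C bind PDGFRα, PDGF-D binds mainly PDGFRβ, and PDGF-B binds both. In the vessel wall, PDGF-B released by endothelial cells, platelets, or macrophages acts on PDGFRβ of smooth muscle cells and pericytes, and PDGF-BB is widely used in culture to drive smooth muscle cells from a contractile toward a synthetic state. The added PDGF-BB is a protein and is not itself counted in these data, which report RNA.

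RNA-Seq was performed on MASMCs from WT mice (n = 4 samples) and from Hint1-/- mice (n = 4 samples), a knockout, as the labels name it, of the gene for the nucleotide-binding protein HINT1. All 8 samples had received 20 ng/mL of PDGF-BB for 24 h, so the comparison is of genotypes under stimulation, and cells without PDGF-BB were not analysed here. The cells were primary cultures from male mice aged 4 to 6 weeks, grown from aortas after the adventitia and the endothelium had been removed and the tissue digested with collagenase. The strain is not given in the labels, and neither the labels nor the methods state whether the 4 samples of a genotype came from separate animals or cultures, so p-values measure the spread between these samples, which may be technical.

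Between 20778077 and 20888041 estimated counts were obtained per sample, and 13535 genes passed a filter on low counts. The targeted gene Hint1 fell from 111 ± 1.72 CPM (edgeR's unit of counts scaled to library size) in WT to 35.6 ± 1.46 CPM in Hint1-/- MASMCs (SD, n = 4 each), with no overlap between the genotypes. The direction matches the label, but 713 to 778 counts of Hint1 remained in each Hint1-/- sample, so its RNA was reduced and not absent, and which part of the gene these reads cover was not analysed here. Of the markers of mature smooth muscle, Acta2 was at 826 ± 44.6 CPM and Myh11 at 20.4 ± 1.03 CPM in WT samples (SD, n = 4). Markers of other cells were also counted. The 8 macrophage markers summed to between 2490 and 2850 CPM in WT and between 2050 and 2190 CPM in Hint1-/- samples, with Lyz2, which encodes lysozyme, at 1202 ± 88.0 and 966 ± 29.0 CPM (SD, n = 4 each). Schwann and glial markers summed to between 44.8 and 50.5 CPM in WT and between 11.9 and 13.6 CPM in Hint1-/- samples. Cardiac muscle markers summed to between 1.58 and 2.39 CPM in WT and between 5.64 and 8.79 CPM in Hint1-/- samples. No marker of these lists was at 0 in all samples.

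Both receptor genes were abundant in stimulated MASMCs and all 7 genes passed the filter on low counts. To compare genes of different length, CPM was divided by the length in kilobases of each gene's longest coding transcript. On this scale Pdgfrb was highest in WT samples at 66.8 ± 1.73 CPM per kilobase and Pdgfra was next at 42.4 ± 0.966 (SD, n = 4 each). Of the ligands, Pdgfa led with 16.7 ± 0.832 CPM per kilobase, followed by Pdgfd with 10.9 ± 0.805 and Pdgfb with 7.47 ± 0.472 (SD, n = 4 each). The receptor-like gene Pdgfrl was at 5.77 ± 0.368 and Pdgfc, the lowest, at 0.863 ± 0.0707 CPM per kilobase (SD, n = 4 each). Each gene's WT samples lay wholly above those of the next gene in this order.

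In Hint1-/- samples the order was the same, from Pdgfrb at 68.8 ± 3.84 CPM per kilobase through Pdgfra at 53.4 ± 2.14, Pdgfa at 15.3 ± 0.898, Pdgfd at 12.7 ± 0.468, Pdgfb at 5.10 ± 0.234, and Pdgfrl at 4.87 ± 0.238 down to Pdgfc at 0.705 ± 0.103 (SD, n = 4 each). There Pdgfb and Pdgfrl overlapped, and the other neighbours did not. The place of Pdgfa and Pdgfd depended on the length used. With the length of all exons of a gene, the WT levels of Pdgfa and Pdgfd were 11.0 ± 0.549 and 10.8 ± 0.805 CPM per kilobase and overlapped, and in Hint1-/- samples Pdgfd, at 12.6 ± 0.468, lay above Pdgfa, at 10.1 ± 0.594 (SD, n = 4 each). Before division by length, 97.0% of tested genes had a lower mean count than Pdgfrb and 96.4% a lower one than Pdgfra, against 13.5% for Pdgfc.

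**Figure D1:**
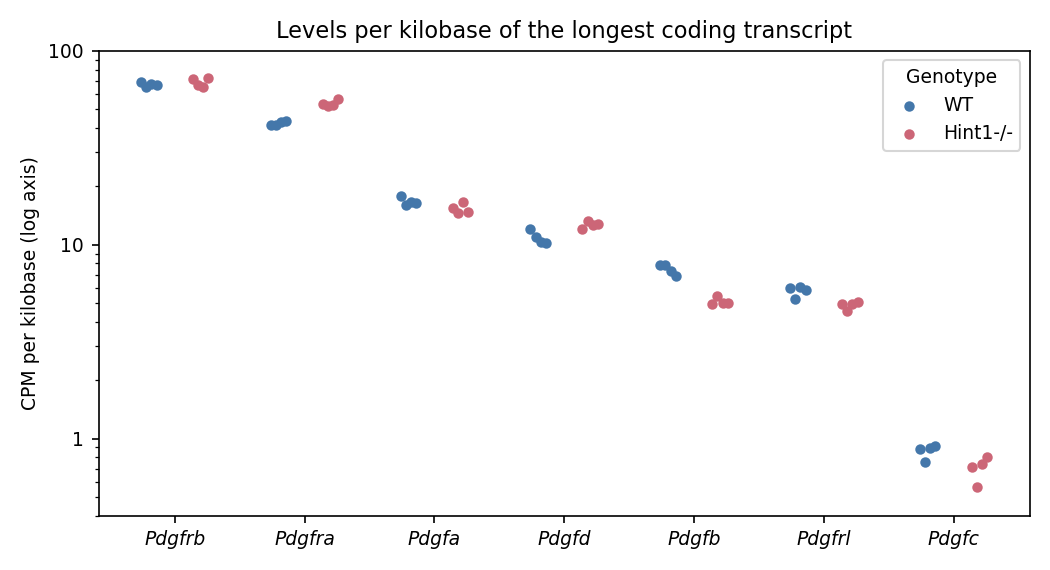
Level of each PDGF receptor and ligand gene in CPM per kilobase of its longest coding transcript, on a log axis, with 1 point per sample and the genotypes side by side. The receptors lie between 41.5 and 72.4 CPM per kilobase, and Pdgfc lies lowest, between 0.563 and 0.912.

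Between the genotypes, edgeR's quasi-likelihood test called 4 of the 7 genes changed at an adjusted p under 0.05, the adjustment being that of Benjamini and Hochberg over all genes tested. The rises were in Pdgfra and Pdgfd and the falls in Pdgfb and Pdgfrl. Over all 13535 genes tested, 21.5% passed this threshold, 11.2% as higher and 10.2% as lower in Hint1-/- samples. No gene of the family also passed the study's second threshold of a fold change over 1.5, which 2.83% of all genes tested passed together with the first. DESeq2, limma-voom, and an unadjusted p under 0.05 with this fold threshold also gave 0 of 7. Without WT replicate 4, Pdgfb passed it as well, with a log2 fold change of −0.59. In 4 of the 7 genes the genotypes had no overlap, against 23.0% of all genes tested. The median log2 fold change was −0.12 over the 7 genes and 0.00031 over all genes tested. Since the family was chosen with earlier results known, these counts and shares of its genes are a description.

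**Figure D2:**
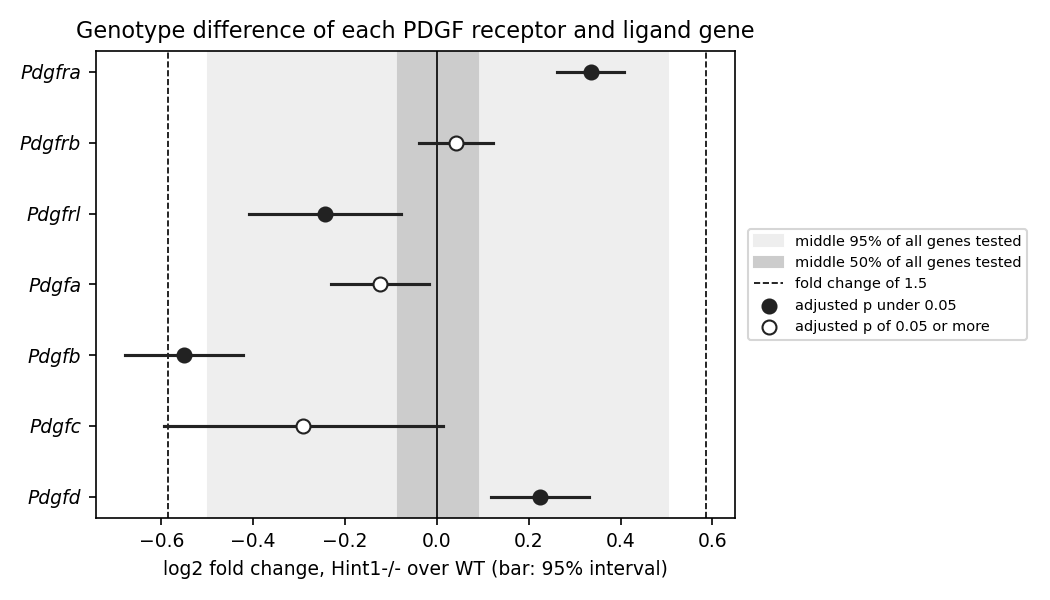
Log2 fold change of each PDGF receptor and ligand gene in Hint1-/- over WT samples (horizontal axis), with its 95% interval as a bar. Filled points have an adjusted p under 0.05, dashed lines mark a fold change of 1.5, and the grey bands hold the middle 95% (from −0.498 to 0.504) and the middle 50% (from −0.0855 to 0.0906) of all genes tested. Pdgfb lies below the wider band and the 6 other genes lie within it.

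The genes that rose, Pdgfra and Pdgfd, are shown with the 250 bases before their start, from RefSeq on GRCm38.p6, so that the stretch upstream of each can be set beside the values. Such stretches were taken from the RefSeq promoter table for 4 of the 7 genes, and none was taken for the other genes. The Pdgfra stretch lies on the plus strand at chr5:75152001-75152250 and 54.4% of its bases are G or C. The Pdgfd stretch lies on the plus strand at chr9:6168236-6168485 and has 53.6%, and the median over all 32851 such stretches was 52.4%. Each is written 5′ to 3′, and capitals mark the matches to the motifs named in the next paragraph.
Pdgfra: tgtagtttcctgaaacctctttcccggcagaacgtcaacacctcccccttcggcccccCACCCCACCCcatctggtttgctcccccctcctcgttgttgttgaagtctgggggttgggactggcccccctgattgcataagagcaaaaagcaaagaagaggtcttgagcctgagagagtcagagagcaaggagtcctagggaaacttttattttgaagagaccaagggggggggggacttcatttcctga
Pdgfd: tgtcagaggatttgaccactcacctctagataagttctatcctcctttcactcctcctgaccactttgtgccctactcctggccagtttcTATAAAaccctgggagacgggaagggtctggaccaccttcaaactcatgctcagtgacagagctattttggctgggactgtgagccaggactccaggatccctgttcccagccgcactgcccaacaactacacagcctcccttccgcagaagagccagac

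Motifs of 6 kinds of transcription factor or core element were searched on both strands of these stretches. In Pdgfra the capitals mark CACCC, a core bound by Krüppel-like factors, which is present in 2 places that follow each other, from base −192 counted back from the start, and in 52.0% of all stretches. In Pdgfd they mark TATAAA, the letters of the TATA element, at base −160 from the RefSeq start, which 12.4% of all stretches hold. GENCODE, used here for gene positions, starts Pdgfra and Pdgfd further downstream, at 75152292 and 6168584. Neither stretch held GCCNNNGGC (AP-2, 13.7% of all stretches), GGGCGG (SP factors, 32.7%), TGANTCA (AP-1, 6.75%), or CACGTG (a form of the E-box, 6.02%). Other forms of the E-box were not searched. The stretches before the starts of Pdgfa held GGGCGG and CACCC, and that of Pdgfc held CACCC. The Pdgfra and Pdgfd stretches thus shared none of the 6 motifs. A match shows the letters and not that a factor was bound.

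Pdgfra, which encodes PDGFRα, rose by 26.1% in Hint1-/- MASMCs. WT samples 1 to 4 had 5908, 5964, 6153, and 6178 estimated counts. Hint1-/- samples 1 to 4 had 7498, 7341, 7429, and 8025. All 4 Hint1-/- samples exceeded all 4 WT samples, and the gap between the genotypes was wider than the spread within either. The level rose from 289 ± 6.58 to 365 ± 14.6 CPM (SD, n = 4 each), a log2 fold change of 0.33 (SE 0.034, 95% interval 0.26 to 0.41, adjusted p = 9.1e-07 in edgeR's test). Of all genes tested, 5.11% had a higher log2 fold change. In such bulk samples a change in the number of cells of a type and a change in RNA per cell cannot be told apart.

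Pdgfra is also used as a marker of fibroblasts and adventitial cells, and the other 9 markers of that list summed to between 5470 and 6090 CPM in WT and between 5940 and 6340 CPM in Hint1-/- samples, which overlap. With Pdgfra counted, 5 of the list's 10 genes rose and 3 fell at an adjusted p under 0.05 in edgeR's test. Over all genes tested, 11.2% rose and 10.2% fell at this threshold, and 2.83% passed both thresholds. In the list, Dcn, Lum, and Tcf21 rose past both thresholds (log2 fold changes of 0.83, 0.88, and 1.20), and Dpt fell past both (−0.79). Of these Tcf21 was low, at 9 to 19 counts in WT and 28 to 44 in Hint1-/- samples. The part of fibroblasts and adventitial cells in the rise of Pdgfra was not tested. The gene lies at chr5:75152292-75198215 on the plus strand of mm10, and the antisense gene Gm42802 and the unclassified gene Gm42803 on the other strand share 456 and 166 bases of its exons. Neither was among the symbols counted, and whether counting used strand is not given in the sources used here, so reads from these genes cannot be told from reads of Pdgfra.

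Pdgfrb encodes PDGFRβ, the main receptor of the added PDGF-BB on smooth muscle cells. Its counts were 7798, 7369, 7600, and 7533 in WT samples 1 to 4 and 8061, 7454, 7294, and 8154 in Hint1-/- samples 1 to 4. The genotypes overlapped, with the lowest and the highest sample both in the Hint1-/- group. WT samples averaged 362 ± 9.39 CPM and Hint1-/- samples 373 ± 20.8 CPM (SD, n = 4 each), and the log2 fold change of 0.04 (SE 0.038, 95% interval −0.038 to 0.12) did not pass the test (adjusted p = 0.486 in edgeR's test). The other 7 markers of pericytes, cells for which Pdgfrb is a marker, summed to between 207 and 220 CPM in WT and between 150 and 165 CPM in Hint1-/- samples. Of that list's 8 genes, 5 fell at an adjusted p under 0.05, with Mcam (log2 fold change −2.13) and Cspg4 (−0.75) past both thresholds. Over all genes tested, 10.2% fell at this p threshold, and 2.83% passed both thresholds in either direction. Pdgfrb lies on chromosome 18 of mm10 from 61045150 to 61085061, on the plus strand, where no other annotated gene overlaps it.

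The balance of the receptor transcripts within a library does not depend on its size. The ratio of Pdgfra to Pdgfrb, each per kilobase, was 0.601, 0.642, 0.642, and 0.651 in WT samples 1 to 4 and 0.738, 0.782, 0.808, and 0.781 in Hint1-/- samples 1 to 4. Every Hint1-/- ratio was above every WT ratio, and Pdgfrb transcripts outnumbered Pdgfra transcripts in all 8 samples on this scale. The mean ratio was 0.634 ± 0.0223 in WT and 0.777 ± 0.0290 in Hint1-/- samples (SD, n = 4 each), a difference of 0.29 on the log2 scale, given here without a test.

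Pdgfrl encodes a secreted or membrane-associated protein that resembles the extracellular part of the receptors and has no kinase domain. It had 192, 170, 196, and 189 counts in WT samples 1 to 4 and 159, 145, 159, and 163 in Hint1-/- samples 1 to 4. The genotypes did not overlap, but the highest Hint1-/- sample (163) lay close to the lowest WT sample (170). The level fell from 8.93 ± 0.570 to 7.54 ± 0.369 CPM (SD, n = 4 each), a log2 fold change of −0.24 (SE 0.079, 95% interval −0.41 to −0.078, adjusted p = 0.0341 in edgeR's test). This call was narrow. Without WT replicates 1, 3, or 4 the adjusted p was 0.0806, 0.0993, or 0.0672, without Hint1-/- replicates 1, 2, or 3 it was 0.0585, 0.101, or 0.0548, and DESeq2 gave 0.137, with log2 fold changes between −0.29 and −0.21 throughout. The gene lies on chromosome 8 of mm10 from 40926212 to 40990785, on the plus strand.

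**Figure D3:**
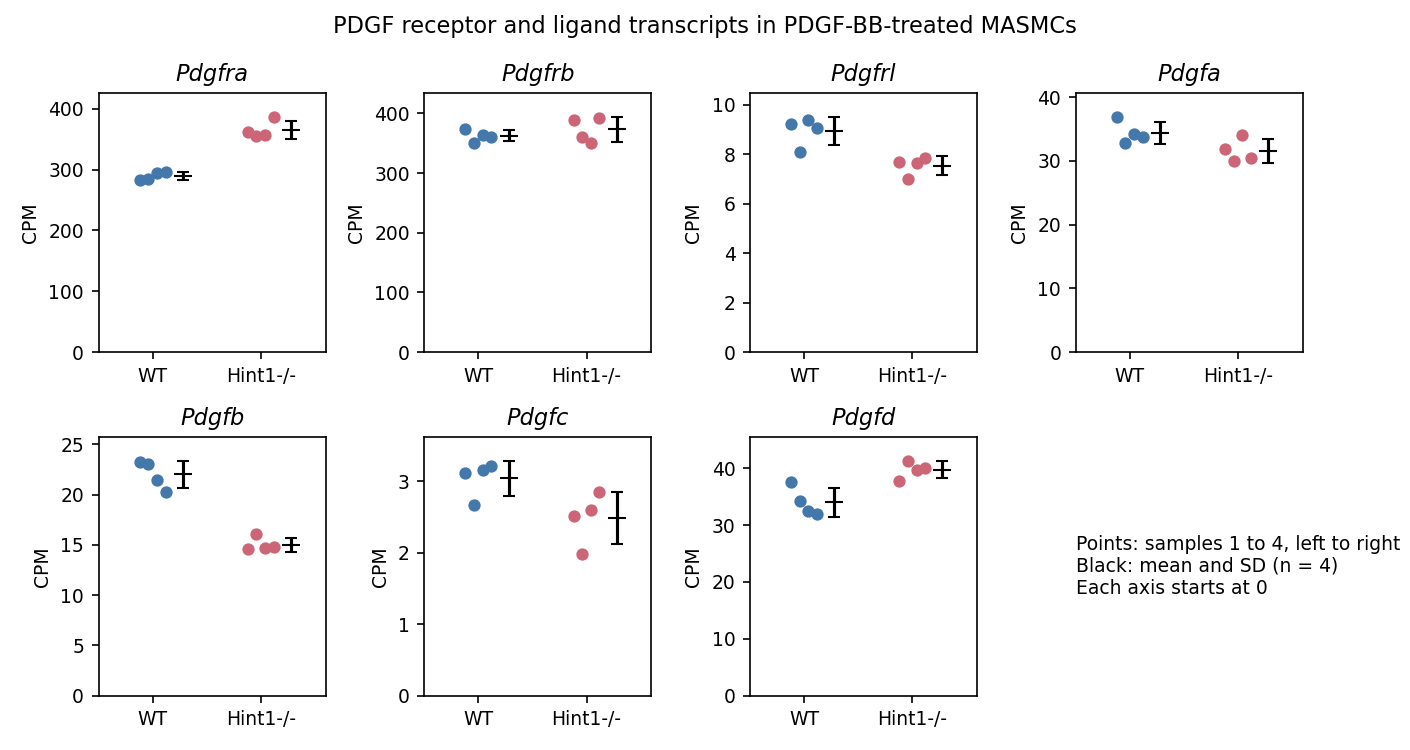
Level in CPM of each PDGF receptor and ligand gene in WT (blue) and Hint1-/- (red) samples, with samples 1 to 4 from left to right, the mean and SD in black (n = 4), and each vertical axis starting at 0. In Pdgfra, Pdgfrl, Pdgfb, and Pdgfd the points of the genotypes do not overlap, while in Pdgfrb, Pdgfa, and Pdgfc they do.

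Of the ligand genes, Pdgfb fell, Pdgfd rose, and Pdgfa and Pdgfc did not pass the test. Pdgfb, which encodes the chain that forms PDGF-BB, showed the largest change of the 7 genes. WT samples 1 to 4 had 484, 483, 449, and 423 counts (rounded), and Hint1-/- samples 1 to 4 had 302, 332, 306, and 306. All 4 Hint1-/- samples were below the 4 WT samples by a wide gap, and within the Hint1-/- group replicate 2 stood above the other 3. The level fell from 22.0 ± 1.39 to 15.0 ± 0.691 CPM (SD, n = 4 each), or by 31.7%, with a log2 fold change of −0.55 (SE 0.061, 95% interval −0.68 to −0.42, adjusted p = 2.4e-06 in edgeR's test). Of all genes tested, 2.14% had a lower log2 fold change. Pdgfb lies at chr15:79995874-80014977 on the minus strand of mm10. Its estimated counts were not whole in any of the 8 samples, so part of its reads was divided between features.

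Macrophages, endothelial cells, and platelets are known sources of PDGF-B. Of the 8 macrophage markers, 7 fell at an adjusted p under 0.05 in edgeR's test, as did 10.2% of all genes tested. Among these 7 were Lyz2 (log2 fold change −0.32), Cd14 (−0.25), and Csf1r (−0.38), and Itgam had a value of −0.04 (adjusted p = 0.523 in edgeR's test). No macrophage marker passed both thresholds, which 2.83% of all genes tested did, and the list's log2 fold changes ran from −0.44 to −0.039. Per 1000 counts of these markers, Pdgfb had 9.33, 8.71, 8.33, and 7.11 counts in WT samples 1 to 4 and 7.10, 7.31, 6.72, and 7.04 in Hint1-/- samples 1 to 4. On this scale the genotypes overlapped, since WT replicate 4 lay below Hint1-/- replicate 2, with means of 8.37 ± 0.938 and 7.04 ± 0.244 (SD, n = 4 each). The part of macrophage transcripts in the fall of Pdgfb was not tested.

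The 8 endothelial markers together were at 5.57 to 8.12 CPM in WT and 5.24 to 7.68 CPM in Hint1-/- samples. The 6 platelet markers were at 3.34 to 4.12 and 3.05 to 4.39 CPM, so both lists overlapped between the genotypes. None of their genes tested, 5 endothelial and 3 platelet, passed an adjusted p of 0.05 with edgeR, DESeq2, or limma-voom, and at an unadjusted p under 0.05 in edgeR's test 1 endothelial gene and 0 platelet genes passed. Of the 6 Schwann and glial markers, 5 fell past both thresholds, led by Ngfr (log2 fold change −2.73) and Sox10 (−2.53). Of the 7 mature smooth muscle markers tested, 5 fell and 1 rose at an adjusted p under 0.05 in edgeR's test. Myh11 (−1.54), Cnn1 (−1.12), and Des (−0.61) were lower past both thresholds. Acta2, with the highest mean count of the list, fell from 826 ± 44.6 to 578 ± 15.6 CPM (−0.51, SD, n = 4 each). Smtn (0.25) rose. Over all genes tested, 10.2% fell and 11.2% rose at this p threshold, and 2.83% passed both thresholds. The part of these cells in the fall of Pdgfb was not tested.

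Pdgfd encodes a chain that is secreted in a latent form and cleaved outside the cell. WT samples 1 to 4 had 783, 718, 679, and 667 counts, and Hint1-/- samples 1 to 4 had 784, 856, 827, and 833. The groups did not overlap, by the narrow margin of 37.6 CPM in WT replicate 1 against 37.8 CPM in Hint1-/- replicate 1. The level rose from 34.0 ± 2.53 to 39.8 ± 1.47 CPM (SD, n = 4 each), or by 16.8%, with a log2 fold change of 0.22 (SE 0.051, 95% interval 0.12 to 0.33, adjusted p = 0.00352 in edgeR's test). Of all genes tested, 9.08% had a higher log2 fold change. The gene lies at chr9:6168584-6378850 on the plus strand of mm10, and the gene Ddi1 inside it shares none of its exon bases and was counted no more than 1 time in a sample.

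The ligands with opposite changes were also set against each other within each library. The ratio of Pdgfd to Pdgfb, each per kilobase, lay between 1.40 and 1.52 in WT and between 2.43 and 2.56 in Hint1-/- samples. The means were 1.46 ± 0.0568 and 2.49 ± 0.0688 (SD, n = 4 each), a difference of 0.78 on the log2 scale. This pair was chosen after the fold changes were known, so the difference is a description.

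**Figure D4:**
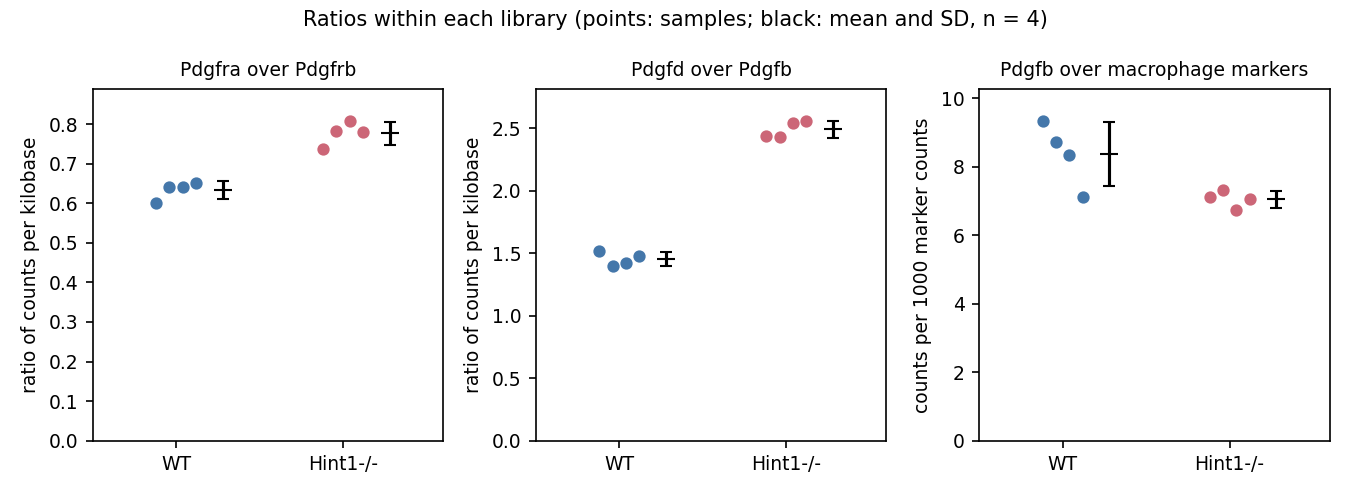
Ratios within each library, with 1 point per sample (1 to 4 from left to right) and the mean and SD in black (n = 4). The ratios of Pdgfra to Pdgfrb and of Pdgfd to Pdgfb, per kilobase, do not overlap between the genotypes. Pdgfb per 1000 macrophage marker counts lies at 7.11 to 9.33 in WT and 6.72 to 7.31 in Hint1-/- samples. It overlaps only between WT replicate 4 and Hint1-/- replicate 2.

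Pdgfa encodes the chain of PDGF-AA, which signals through PDGFRα. It had 769, 690, 715, and 706 counts in WT samples 1 to 4 and 661, 620, 709, and 632 in Hint1-/- samples 1 to 4. The genotypes overlapped through Hint1-/- replicate 3, which lay among the WT samples. WT samples averaged 34.4 ± 1.72 CPM and Hint1-/- samples 31.6 ± 1.85 CPM (SD, n = 4 each), and the log2 fold change of −0.12 (SE 0.051, 95% interval −0.23 to −0.018) did not pass the test (adjusted p = 0.0928 in edgeR's test). Without Hint1-/- replicate 3 it was −0.16 and passed (adjusted p = 0.0333), and over the alternatives the adjusted p ranged from 0.0333 to 0.271. Pdgfa lies at chr5:138976014-138997370 on the minus strand of mm10, and the antisense gene 6330403L08Rik shares 813 bases of its exons and was not among the symbols counted.

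Pdgfc, whose product is also secreted latent and is activated by tissue plasminogen activator, was the least abundant member. It had 65, 56, 66, and 67 counts in WT samples 1 to 4 and 52, 41, 54, and 59 in Hint1-/- samples 1 to 4. The genotypes overlapped at WT replicate 2, which stood below the other WT samples, and Hint1-/- replicate 4. WT samples averaged 3.04 ± 0.249 CPM and Hint1-/- samples 2.48 ± 0.362 CPM (SD, n = 4 each). Its log2 fold change of −0.29 was larger in size than that of Pdgfd or Pdgfrl but did not pass the test (SE 0.14, 95% interval −0.59 to 0.013, adjusted p = 0.171 in edgeR's test). At these counts a fall of up to 0.59 on the log2 scale was within the interval. Pdgfc lies at chr3:81036416-81214040 on the plus strand, and the antisense gene Gm16000 shares 147 bases of its exons.

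For the 4 genes that changed, the genes with the most similar profile were found among 11848 genes whose mean count was at least 50. Likeness was the root mean square difference between log2 CPM values over the 8 samples, each gene being centred on its own mean. Among those nearest to Pdgfra were Lats2 (0.0280) and Hk1 (0.0288). Nearest to Pdgfb were Epsti1 (0.0478), Sema4d (0.0613), and Ntn4 (0.0701), and nearest to Pdgfd were Leng1 (0.0330), Usp53 (0.0394), and Cdca3 (0.0417). Pdgfrl had Mrps18a (0.0401), Ccdc57 (0.0432), and Snx24 (0.0475) nearest. The measure includes the difference between the genotypes, so a like change in these genes was fixed by how they were picked.

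Other genes of the pathway were read against the 21.5% of all genes tested that passed an adjusted p of 0.05. This list and those that follow were chosen with earlier results of these data known. A share above 21.5% is therefore a description and not a result about the list. Of 10 genes whose products process or bind the ligands, 3 rose and 3 fell at an adjusted p under 0.05 in edgeR's test, which is 60% of the list and above that share. None passed a fold change of 1.5, and the list's median log2 fold change was −0.03. Lrp1, an endocytic receptor that associates with PDGFRβ, rose from 1299 ± 12.5 to 1453 ± 134 CPM (log2 fold change 0.16), and the proprotein convertases Pcsk6 (0.29) and Pcsk5 (0.42) rose as well. Sparc, a matrix protein that binds PDGF-B, fell from 3163 ± 148 to 2894 ± 79.8 CPM (−0.13, SD, n = 4 each), as did the proteases Plau (−0.16) and St14 (−0.21), which cleave latent PDGF-D. Plat, the tissue plasminogen activator, had a value of −0.07 (adjusted p = 0.353) and Furin, a convertase of the PDGF-A and PDGF-B precursors, one of 0.02 (adjusted p = 0.792). Pcsk5, Pcsk6, St14, Plat, and Furin were singled out after their values were seen, and so were the members of the lists that follow other than Grb10, Pik3r1, Sh3kbp1, Ptprj, Ccl2, Ier3, Ptgs2, Il34, Csf1r, Vegfa, and Vegfd.

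Of 23 genes for proteins that bind or act next to the activated receptors, 2 rose and 2 fell at an adjusted p under 0.05 in edgeR's test, a share of 17.4% against 21.5% of all genes tested, and none passed the fold threshold. Among those that fell was the adaptor Grb10, from 142 ± 3.25 to 130.1 ± 3.23 CPM (SD, n = 4 each, log2 fold change −0.12). Pik3r1, a regulatory subunit of PI3K (0.22), and Stat5a (0.26) rose. The list's median log2 fold change was 0.05. Of 11 genes for proteins that end receptor signalling, Sh3kbp1, an adaptor of receptor endocytosis (−0.15), and Ptprj, a phosphatase of PDGFRβ (−0.20), fell, which is 18.2% of the list against the same 21.5%. Both shares lie below that of all genes, so neither count is a result about these lists. Cbl, a ubiquitin ligase of activated receptors, had a value of 0.13 (adjusted p = 0.0594), and the list's median was −0.01.

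Of 17 genes that PDGF is known to induce early after stimulation, 4 rose and 3 fell at an adjusted p under 0.05 in edgeR's test, or 41.2% of the list against 21.5% of all genes tested, with a median log2 fold change of −0.01 and none past the fold threshold. The chemokine gene Ccl2 rose from 1977 ± 76.4 to 2291 ± 76.7 CPM (log2 fold change 0.21, SD, n = 4 each), and Ier3 (0.24), the prostaglandin synthase gene Ptgs2 (0.23), and Myc (0.16) also rose. Nr4a1 (−0.36), Atf3 (−0.35), and Fos (−0.26) fell, and Fos alone of these 7 overlapped between the genotypes. These samples were taken at 24 h, so no early time point stands behind these values. In these lists and among the macrophage markers, no gene passed the fold threshold at an unadjusted p under 0.05 either, nor with DESeq2 or limma-voom at an adjusted one.

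Among related ligands and receptors, which are the VEGF ligands and receptors and the ligands and receptors of the KIT, FLT3, and CSF1R group, 12 of 15 genes were tested. Of these, 4 rose and 4 fell at an adjusted p under 0.05 in edgeR's test, or 66.7% against 21.5% of all genes tested, and the median log2 fold change was 0.02. Il34, a ligand of CSF1R, fell past both thresholds, from 9.49 ± 0.625 to 6.16 ± 0.556 CPM (SD, n = 4 each, log2 fold change −0.62). Kitl, the ligand of KIT, rose from 44.9 ± 2.94 to 64.4 ± 3.73 CPM (0.52, SD, n = 4 each), and Vegfa (0.22), Vegfc (0.20), and Vegfb (0.16) rose. The receptor genes Flt1 (−0.45) and Csf1r (−0.38) and the ligand gene Vegfd (−0.30) fell, and Csf1r also stands in the macrophage list, which fell with it. The receptor genes Kit, Flt3, and Kdr did not pass the filter on low counts, with at most 11, 7.92, and 15 counts in a sample.

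**Figure D5:**
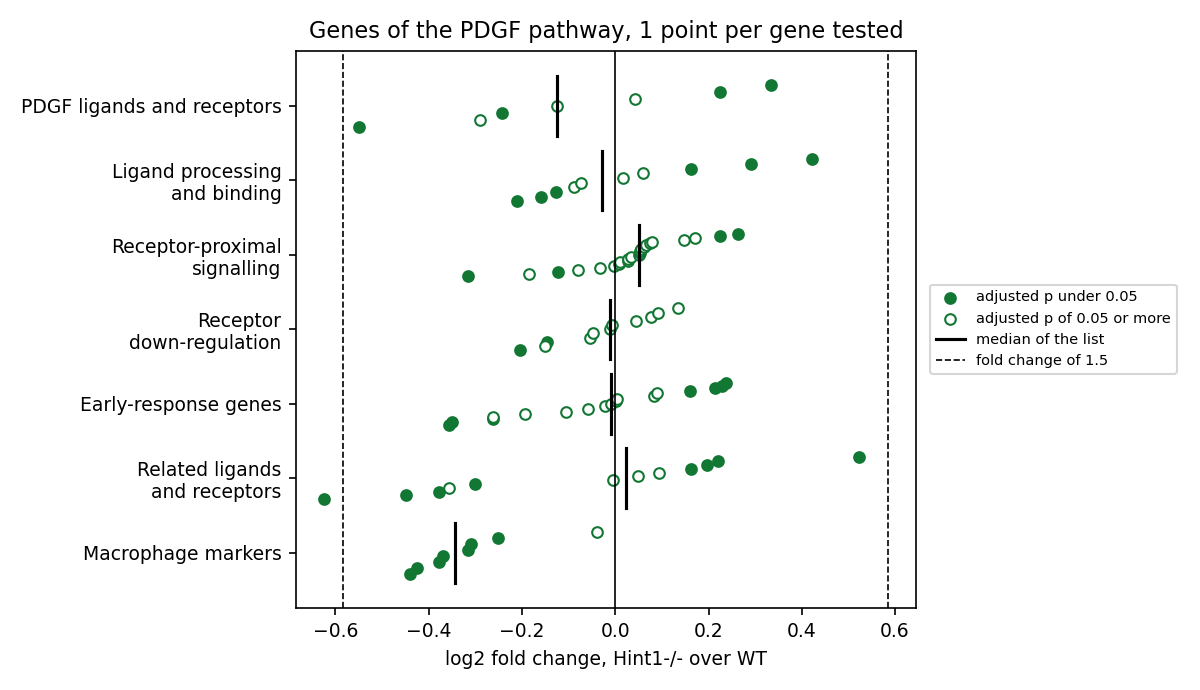
Log2 fold change in Hint1-/- over WT samples (horizontal axis) of each tested gene in the PDGF family, 5 lists around it, and the macrophage markers, with filled points for an adjusted p under 0.05, black bars for list medians, and dashed lines at a fold change of 1.5. The points of the 5 lists lie on both sides of 0 with medians between −0.03 and 0.05, and all 8 macrophage markers lie below 0.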

How the data were processed

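RNA-Seq was performed on 4 WT and 4 Hint1-/- samples of MASMCs, grouped as the sample labels give genotype. Reads were mapped to mm10. The submitters' processing notes name Bowtie2, RSEM 1.3.1, and DESeq2 1.4.5, the study's methods name HISAT2, and the annotation is not given in the sources used here. Estimated counts per gene symbol, without normalization, are what the authors deposited, and 67.3% to 67.8% of them were whole numbers in a sample. They were rounded to whole numbers here.

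Counts were filtered with filterByExpr, scaled by TMM (factors 0.993 to 1.01), and compared with glmQLFit and glmQLFTest in edgeR 4.0.16 (R 4.3.3), two-sided, with genotype as the only term and Benjamini-Hochberg adjustment over 13535 genes. The SE was derived from the log2 fold change and the F statistic, as the former's size over the latter's square root. Log2 CPM used a prior count of 2. Alternatives were DESeq2 1.42.0, limma-voom (limma 3.58.1), DESeq2's size factors, upper-quartile factors, a minimum of 10 counts per sample or no filter, a replicate block, raw counts for ratios, and each sample left out. The pipeline was tested on simulated data. Totals of 20778077 to 20888041 counts per sample left 7294 to 8154 counts for Pdgfrb and 41 to 67 for Pdgfc, whose interval is the widest of the 7 genes.

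The rule for the 7 genes uses symbols alone, but the family and all lists were chosen with earlier results of these data known. Named by rule were the 7 genes, list members past both thresholds, up to 3 further members per list past the p threshold with the highest mean count, the 3 nearest profiles, and Hint1, and the results for 2 genes under this rule are not reported here. Positions and lengths came from GENCODE M21 (mm10) by symbol and promoters from RefSeq (GRCm38.p6). Protein sequences were not used here.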

Additional observations from a re-analysis of the deposited data

Results flagged for a closer look

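In 2 of the 14 groups of 4 samples examined, a single sample stood apart from the rest of its group in log2 CPM. Chance gives this in about 1 in 20 groups. For Pdgfb in Hint1-/- samples, the other replicates had 302 to 306 counts and replicate 2 had 332, so that its distance to the nearest was 0.879 of the whole range. For Pdgfc in WT samples, replicate 2 was lowest at 56 counts, the others had 65 to 67, and the distance was 0.841 of the range. With each of these samples left out, the fall of Pdgfb remained past the threshold on the adjusted p and Pdgfc remained short of it.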

How the results depend on the processing

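Over 15 alternatives, no gene of the 7 changed direction, and Pdgfra (log2 fold change 0.31 to 0.35), Pdgfb (−0.59 to −0.52), and Pdgfd (0.19 to 0.27) passed and Pdgfrb (0.017 to 0.071) and Pdgfc (−0.36 to −0.20) failed the threshold on the adjusted p in each. Pdgfrl lost its call under DESeq2 (−0.25, adjusted p = 0.137) and in 6 of the 8 fits that left out a sample (range −0.29 to −0.21), and Pdgfa gained one without Hint1-/- replicate 3 (range over left-out samples −0.16 to −0.090), in each case at a similar fold change. With a sample left out, 0 to 1 of the 7 genes passed both thresholds. From raw counts in place of counts per kilobase, the mean log2 ratio of Pdgfra to Pdgfrb in WT samples was −0.32 in place of −0.66, and the difference between genotypes was the same by construction. Over all genes, 2258 to 3082 passed the threshold on the adjusted p and 310 to 442 both. With the replicate number as a block, 3082 genes passed the first and 382 both, and none of the 7 changed its call. Same-numbered samples did not deviate together (correlations of −0.045, 0.081, 0.0088, and 0.023). These values show no pairing by number, but they cannot exclude that same-numbered samples were prepared together. Depth limits Pdgfc most, at 41 to 67 counts per sample.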
